A study of Apis mellifera with 6 samples.

Results

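The comparison described here sets the ovaries of honeybee (Apis mellifera) workers that lived without a queen against those of workers that lived with one, across all gene entries of the authors' expression table. It rests on 4 RNA-seq libraries, 2 of queen-less worker ovaries and 2 of queen-right worker ovaries, out of 6 in the series, the other 2 being of queen ovaries. Queen-right workers came from standard hives headed by a laying queen, and their ovaries had a score of 0, the inactive state. Queen-less workers came from frames of brood and bees moved into nucleus boxes where queen cells were destroyed. They were dissected 2 to 4 weeks later and their ovaries had a score of 3, the active state. The queens were egg layers about 12 months old, and their pools entered the filter on low values and the estimate of the spread between pools. All bees came from 1 supplier and were kept around Dunedin, New Zealand. Each library was made from total RNA of a pool of dissected ovaries, and the number of bees per pool, the ages of the workers and the hive behind each pool are not given in the sources used here. With the removal of the queen, the bees' housing and the days since the move also changed, so these cannot be told apart. The labels call the libraries pools, so p-values measure the spread between pools.

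In a hive with a laying queen, her mandibular pheromone and the brood hold the ovaries of workers in a resting state, with thin ovarioles that do not carry eggs to maturity. When queen and brood are lost, some workers activate their ovaries and lay unfertilised eggs, which develop into drones. An insect ovariole of this kind carries dividing germ cells at its tip, then clusters in which nurse cells load RNA and protein into 1 oocyte, and a sheet of somatic follicle cells that encloses each cluster, passes yolk proteins to the oocyte and makes the eggshell. Muscle, tracheae and fat body surround the ovarioles and are dissected with them in part.

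Levels are given as RPKM, the reads of a gene scaled to its length and to the size of the library. Fold changes are on the scale log2(RPKM + 1), queen-less minus queen-right, after the authors' own scaling factor for each library, and they understate the change of genes at low RPKM. Genes are called rising or falling where the adjusted p from limma was under 0.05. Of 11169 gene entries, 8778 reached 1 RPKM in at least 2 libraries and were tested. Of these, 5930 (67.6%) were called, 2686 (30.6%) higher and 3244 (37.0%) lower in queen-less workers, so a call in this comparison is common and a list of genes is read below against these shares. Calls of at least 2-fold made up 16.3% of entries upwards and 21.3% downwards. Of the 8778 entries, 488 had passed the filter through the queen-right pools alone and 109 through queen-less or queen pools alone. For such entries the filter itself favoured the direction. The pools of the worker groups did not overlap in 84.7% of entries, with both queen-less pools above both queen-right pools in 31.6% and below them in 53.1%. The median fold change of all entries tested was −0.13 and the middle 90% ran from −2.16 to 1.89. A symbol other than a LOC number is given for 2339 of the entries tested, of which 1666 (71.2%) were called, and the genes named below come from these. Of the 162 genes named in the report, 44 overlap the span of another entry at least in part, so that some of their reads could belong to either. For any gene on its own, the smallest p that an exact two-sided permutation of 2 pools against 2 allows is 0.333.

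The RPKM of all entries added up to 385121 and 411992 in queen-right pools and to 336392 and 330953 in queen-less pools, and the pools of a group correlated across entries with r of 0.976 and 0.983. Without read numbers, the depth of each library is unknown. The queen-right pools did not hold equal amounts of the transcripts that were high in active ovaries. Among 8475 entries at 1 RPKM or more in both, 643 (7.59%) were at least 1.5 times higher in queen-right pool 1 than in pool 2, while this held for 60 of the 103 such entries (58.3%) that were called with a fold change of 3 or more. caudal (cad), for example, was at 43.2 RPKM in pool 1 and 6.74 RPKM in pool 2. Values without each queen-right pool are therefore given below where they matter, and the part of this difference between pools in the results was not tested.

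Transcripts that mark tissue around the ovarioles fell in the queen-less pools. The 6 fat body markers found in the table summed to 1579 and 1238 RPKM in the queen-right pools against 39.3 and 49.8 RPKM in the queen-less pools, and all 6 were called lower, with a median of −3.43. The 5 muscle markers summed to 2276 and 2890 RPKM against 166.5 and 136 RPKM, and all 5 were lower, with a median of −3.25. The 4 hemocyte markers fell from sums of 34.2 and 37.99 RPKM to 2.85 and 3.08 RPKM. The tracheal factor trachealess (Trh) fell from 5.62 and 3.47 RPKM to 0.75 and 0.79 RPKM. Of 3 neuronal markers, only synapsin (Syn) was called, lower. None of these markers was at 0 in any worker pool. Trh, Syn and the hemocyte markers NimC1 and NimC2 had passed the filter through the queen-right pools alone, so they had to be lower in the queen-less pools. Of 7 germline markers 3 rose, 1 fell and 3 were not called, so transcripts of germ cells were present in both groups. Their sum went from 1153 and 1232 RPKM to 2408 and 2789 RPKM. Most of it was orb in the queen-right pools (963 and 1058 RPKM), which was called lower, and mael in the queen-less pools (1467 and 1950 RPKM). In such bulk tissue, fewer cells of a type and less RNA per cell cannot be told apart. The part of these shifts in tissue markers in the gene groups below was not tested.

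**Figure D1:**
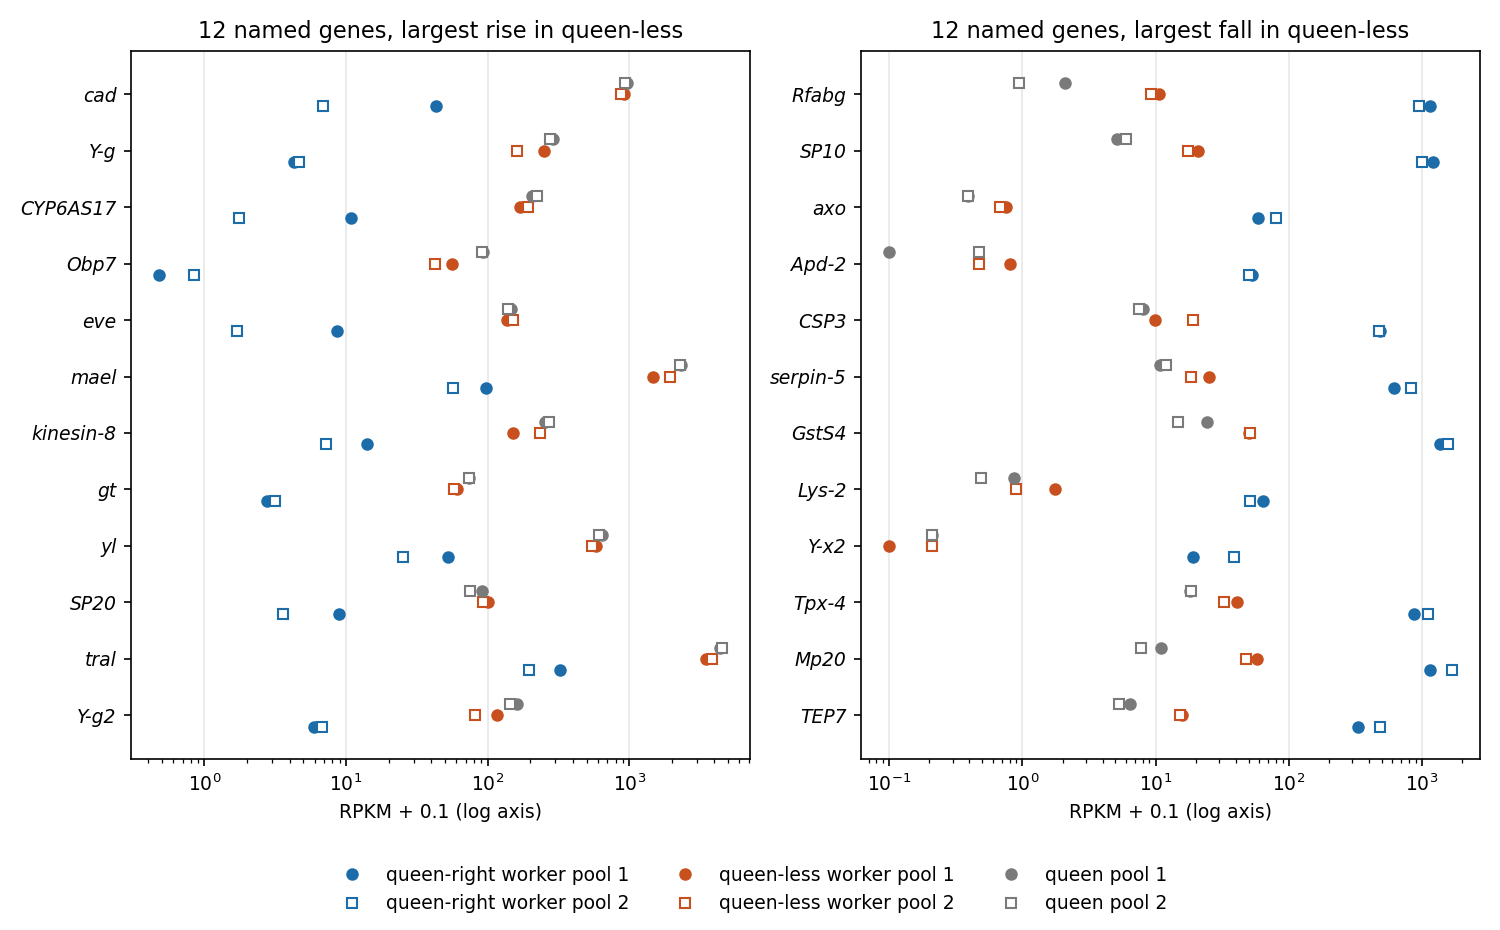
RPKM plus 0.1 on a log axis in each pool for the 12 named genes with the largest rise (left) and the 12 with the largest fall (right) in queen-less workers, with the queen pools for reference. Filled circles are pool 1 and open squares pool 2. In all 24 genes the queen-less pools lie apart from the queen-right pools, and the queen-right pools of cad, CYP6AS17 and eve lie widely apart, at 43.2 against 6.74 RPKM for cad.

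The largest rises among named genes included transcripts of factors that pattern the insect embryo. cad, a homeobox gene whose maternal RNA helps to set posterior fates in insect embryos, stood at 43.2 and 6.74 RPKM in the queen-right pools and at 921 and 874 RPKM in the queen-less pools. Both queen-less pools were far above both queen-right pools, and the fold change was 5.79 (SE 0.68, adjusted p = 0.00021). It was 7.09 without queen-right pool 1 and 4.50 without queen-right pool 2. even-skipped (eve), a homeobox gene of the pair-rule class in Drosophila, rose from 8.58 and 1.61 RPKM to 137 and 152 RPKM, with a fold change of 5.05 (SE 0.52), or 6.03 without queen-right pool 1 and 4.08 without pool 2. giant (gt), a gap gene in Drosophila, rose from 2.68 and 3.06 RPKM to 60.3 and 57.9 RPKM, with a fold change of 4.15 (SE 0.11). The queen-right pools agreed closely for gt, unlike cad and eve. ocelliless (oc), the orthodenticle homeobox gene that patterns the head, rose from 34.7 and 25.9 RPKM to 150 and 141 RPKM.

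Patterning factors, Hox genes among them, included transcripts that rose and transcripts that fell. Of 26 listed factors 21 were tested, of which 9 (42.9%) rose, 5 (23.8%) fell and 7 were not called, with a median of 0.03. Of the 21, 1 had passed the filter through the queen-right pools alone and 2 through queen-less or queen pools alone. Besides cad, eve, gt and oc, the genes that rose were the Hox gene Scr, from 4.14 and 3.79 RPKM to 8.65 and 8.68 RPKM, the gap genes of Drosophila Hb, Kr and Tll, and Lim3, named after their values were seen. Each of these 5 stayed below 12 RPKM in the queen-less pools. Ultrabithorax (Ubx), which sets segment identity in the thorax and abdomen, fell from 34.99 and 39.4 RPKM to 3.61 and 3.05 RPKM, a fold change of −2.95 (SE 0.18). abdominal-A (Abd-A), the neighbouring Hox gene in flies, fell from 10.8 and 12.3 RPKM to 2.41 and 0.64 RPKM, and eya, a cofactor known from Drosophila eye development, from 32.1 and 39.8 RPKM to 14.4 and 10.2 RPKM. The remaining genes that fell were apterous (ap), called in only 7 of 18 alternative analyses, and twist (Twi), both by less than 1 on the log2 scale. In active ovaries the lowest of the 4 risen genes above, gt, was still far above Ubx and Abd-A.

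RNA-binding proteins that store, move or repress messages in the oocyte rose as a group. Of 29 tested, 23 were higher, 2 lower and 4 not called, with a median of 0.96, and 22 were higher when either queen-right pool was left out. trailer hitch (tral), part of ribonucleoprotein granules in Drosophila germ cells, rose from 322 and 195 RPKM to 3463 and 3845 RPKM. Its fold change was 4.05 (SE 0.26, adjusted p = 1.4e-05), and at these levels it was among the most abundant named transcripts of active ovaries. BicC, a KH-domain RNA-binding protein, rose from 46.2 and 21.7 RPKM to 267 and 264 RPKM. Dcp1, a cofactor of mRNA decapping, rose from 49.1 and 36.9 RPKM to 279 and 323 RPKM, and Imp, an mRNA-binding protein of the IGF2BP family, from 45.95 and 27.3 RPKM to 172 and 178 RPKM. The genes that fell were oo18 RNA-binding protein (orb) and mago nashi (mago). orb, the CPEB protein that controls poly(A) tails in Drosophila oocytes, went from 963 and 1058 RPKM to 623 and 523 RPKM. Its fold change of −0.63 (SE 0.14) became 0.03 after quantile normalisation of the libraries, so its direction depends on the scaling. In both groups it was among the more abundant named transcripts.

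Of 11 genes of germ cells and of the piRNA pathway, which silences transposons in the germline, 5 (45.5%) rose, none fell and 6 were not called. Over all entries 30.6% rose and 37.0% fell. maelstrom (mael), a piRNA pathway protein, had the largest change, from 97.5 and 56.5 RPKM to 1467 and 1950 RPKM. The fold change of mael was 4.68 (SE 0.27, adjusted p = 9.9e-06), or 5.11 without queen-right pool 1 and 4.26 without pool 2. vasa (vas), the DEAD-box helicase of germ cells, rose from 18.6 and 16.7 RPKM to 193 and 201 RPKM. The span of vas lies wholly within that of another entry, so reads of both cannot be told apart without strand. Ago3, a Piwi-family protein that binds piRNAs, rose from 8.07 and 10.9 RPKM to 56.7 and 53.6 RPKM. The helicase gene spindle-E (spn-E), of the same pathway, was not called, at 29.2 and 41.4 RPKM against 24.9 and 25.98 RPKM. Germ cell genes thus included transcripts with a large gain and transcripts whose levels in the worker groups could not be separated.

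The receptor and the cargo of yolk uptake moved in opposite directions. Of 10 tested genes of yolk and lipid transport 2 rose, 7 fell and 1 was not called. yolkless (yl), the receptor through which oocytes take up vitellogenin, rose from 52 and 25.3 RPKM to 586 and 548 RPKM, a fold change of 4.12 (SE 0.30, adjusted p = 2.3e-05). Lsd-1, a perilipin on lipid droplets, rose from 23.7 and 24.5 RPKM to 134 and 111 RPKM. Vitellogenin (Vg), the yolk precursor that the fat body makes and releases, went the other way, from 118 and 78.2 RPKM to 1.59 and 8.24 RPKM. The fold change of Vg was −4.12, with an SE of 0.88, and it was −3.19 without queen-less pool 1 and −5.05 without queen-less pool 2. Rfabg, the precursor of the lipid carrier apolipophorin, had the largest fall of all named genes, from 1160 and 947 RPKM to 10.5 and 9.22 RPKM (−6.40, SE 0.23, adjusted p = 3.1e-06). The storage hexamerin Hex70a fell from 98.6 and 92.9 RPKM to 4.88 and 8.97 RPKM. Vg, Rfabg and Hex70a are also 3 of the 6 fat body markers above.

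Genes of the eggshell and the follicle cells were mixed. Of 11 tested, 4 (36.4%) rose, 3 (27.3%) fell and 4 were not called, against 30.6% and 37.0% of all entries. yellow-g (Y-g) and yellow-g2 (Y-g2) are needed in Drosophila to harden the eggshell. Y-g rose from 4.19 and 4.56 RPKM to 248 and 160 RPKM, with a fold change of 5.41 (SE 0.18), and Y-g2 from 5.86 and 6.68 RPKM to 117 and 80.9 RPKM, with one of 3.95 (SE 0.17). They are neighbours on scaffold NW_003377923 of the authors' table, Y-g from base 782257 to 785781 and Y-g2 from 785252 to 791455, and share 530 bases, so some reads could belong to either. traffic jam (tj), a Maf factor of somatic gonad cells in Drosophila, rose from 12.98 and 19.4 RPKM to 37.05 and 33.8 RPKM, and kelch (kel), known from ring canals between nurse cells, from 11.2 and 13.5 RPKM to 28.7 and 25.9 RPKM. mirror (mirr), a homeobox gene that patterns the follicle epithelium in Drosophila, fell from 82.8 and 76.5 RPKM to 4.50 and 4.61 RPKM (−3.67, SE 0.16), and slow border cells (slbo) fell from 27.2 and 32.1 RPKM to 12.5 and 11.3 RPKM. Y-g and Y-g2 stood against the rest of their family. Of 18 tested royal jelly and yellow genes they were the 2 that rose while 11 fell, among them Mrjp1, a royal jelly protein, from 31.4 and 33.8 RPKM to 0.38 and 2.38 RPKM (−3.11 without queen-less pool 1 and −4.42 without queen-less pool 2), and Y-x2, from 18.9 and 38.5 RPKM to 0 and 0.11 RPKM. Y-x2 lies wholly within the span of another entry. It was also the 1 of the 18 that had passed the filter through the queen-right pools alone.

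**Figure D2:**
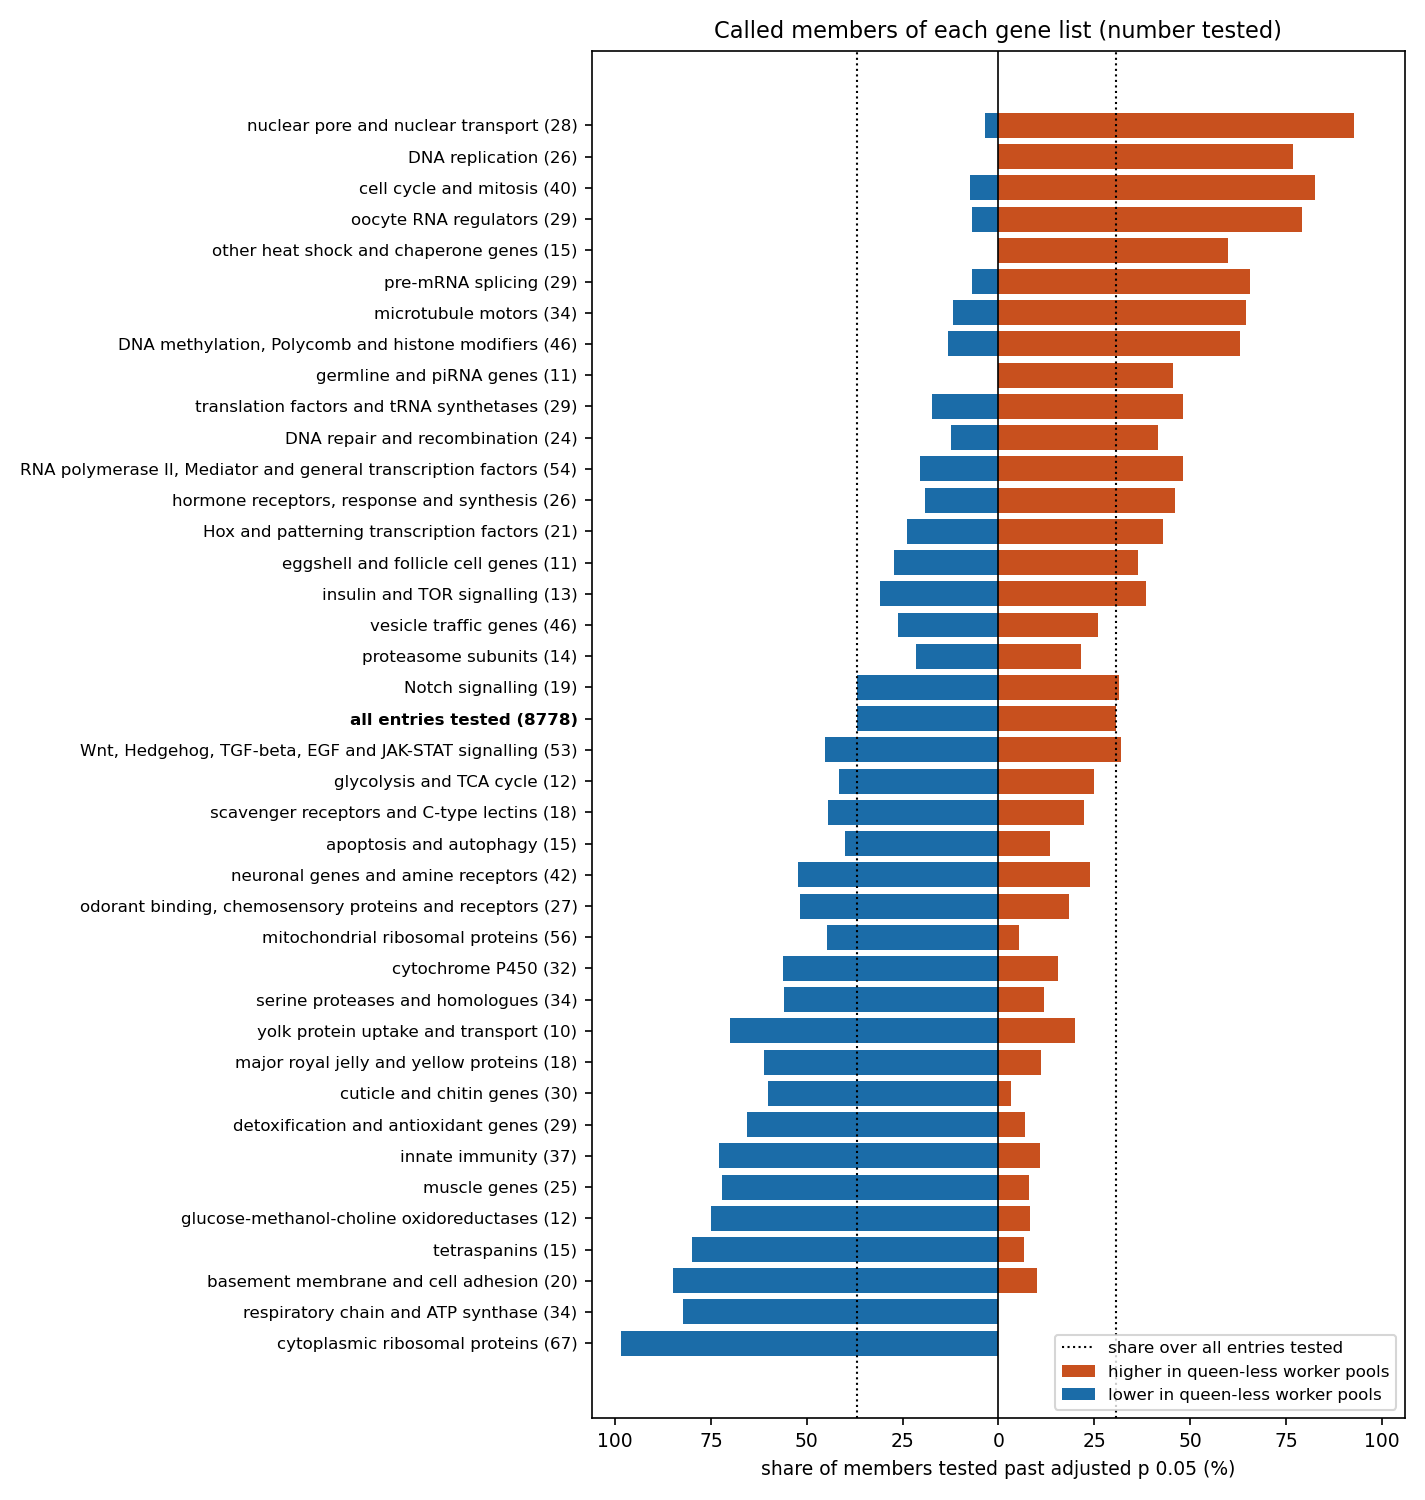
Share of tested members called higher (right) or lower (left) in queen-less worker ovaries, in percent, for each gene list with at least 10 members tested, whose number stands in brackets. Dotted lines mark the shares over all 8778 entries, 30.6% higher and 37.0% lower, and the lists run from nuclear pore genes (26 of 28 higher) to cytoplasmic ribosomal proteins (66 of 67 lower).

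Genes of cell division were higher in active ovaries. Of 40 cell cycle and mitosis genes tested, 33 rose, 3 fell and 4 were not called, with a median of 1.501, and the counts were 33 and 3 also without queen-right pool 1. Cyclin E (CycE), which drives entry into S phase, rose from 7.99 and 8.82 RPKM to 40.9 and 42.2 RPKM, and Cyclin B3 (CycB3), a mitotic cyclin, from 23.6 and 20.2 RPKM to 110 and 120 RPKM. The condensin subunit CAP-D2 rose from 15.2 and 10.01 RPKM to 54.05 and 83.1 RPKM and Incenp, of the chromosomal passenger complex, from 42.5 and 29.1 RPKM to 160 and 210 RPKM. The 3 that fell were Cyclin D (CycD), its kinase Cdk4 and the Cdk entry cdc2c, named after their values were seen. Cdk4 went from 41.04 and 53.4 RPKM to 21.1 and 14.9 RPKM and CycD from 17.9 and 15.8 RPKM to 8.52 and 6.63 RPKM.

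DNA replication genes followed, with 20 of 26 higher, none lower and a median of 0.70. DNApol-alpha60, of the polymerase alpha and primase complex, rose from 10.7 and 12.3 RPKM to 52.1 and 59.9 RPKM. double parked (dup), the Cdt1 protein that licenses origins, rose from 41.7 and 36.9 RPKM to 140 and 147 RPKM, and its inhibitor geminin from 60.99 and 60.03 RPKM to 168 and 170 RPKM. Of 24 DNA repair and recombination genes 10 (41.7%) rose, 3 (12.5%) fell and 11 were not called, against 30.6% and 37.0% of all entries. The mismatch repair gene Msh6 rose from 7.55 and 9.09 RPKM to 29.4 and 33.1 RPKM, but it lies within the span of aph-1, which fell. mus309, the Bloom helicase, rose from 7.02 and 6.04 RPKM to 16.3 and 24.4 RPKM. The nucleotide excision genes Ercc1 and Xpd and the nuclease gene mus81 were the 3 that fell.

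Microtubule motors, which carry RNA and protein through germline cysts and move chromosomes, were higher in 22 of 34 tested genes and lower in 4, with a median of 0.85. kinesin-8 rose from 14.03 and 7.08 RPKM to 150 and 234 RPKM (4.29, SE 0.32, adjusted p = 2.5e-05). kinesin-7A rose from 6.61 and 3.60 RPKM to 55.6 and 112 RPKM and kinesin-14 from 28.4 and 21.3 RPKM to 272 and 303 RPKM. For kinesin-7A the queen-less pools differed about as much as the queen-right pools. kinesin-F fell from 36.5 and 25.04 RPKM to 5.34 and 5.35 RPKM. Lissencephaly-1 (Lis-1), a dynein regulator, was among the more abundant members at 137 and 117 RPKM against 97.5 and 93.7 RPKM and was not called.

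Nuclear pore and nuclear transport genes were higher in 26 of 28 cases against 30.6% of all entries, with 1 lower and 1 not called. The median was 0.91, and 22 were higher without queen-right pool 1 and 27 without pool 2. Mtor, the nuclear basket protein Megator, rose from 24.2 and 20.7 RPKM to 110 and 149 RPKM. RCC1, the exchange factor that loads Ran with GTP, rose from 34.3 and 30.5 RPKM to 124 and 131 RPKM, and importin beta (KPNB1) from 42.1 and 33.6 RPKM to 146 and 146 RPKM. The mRNA export cofactor Nxt1 was the gene that fell, from 41.8 and 43.8 RPKM to 23.1 and 22.99 RPKM, and ran itself was not called, at 25.4 and 56.9 RPKM against 59.8 and 51.4 RPKM. Without queen-right pool 2 ran was called, with a fold change of 1.25.

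Chromatin genes also rose more often than entries at large. Of 46 genes of DNA methylation, Polycomb and histone modification 29 rose, 6 fell and 11 were not called, with a median of 0.88. JIL-1, a kinase of histone H3, rose from 35.9 and 20.04 RPKM to 168 and 169 RPKM. eggless (egg), the H3K9 methyltransferase needed in Drosophila oogenesis, rose from 26.6 and 23.4 RPKM to 97.6 and 120 RPKM, and Polycomb (Pc), a reader of H3K27me3, from 27.3 and 22.1 RPKM to 89.2 and 95.6 RPKM. The DNA methyltransferases differed. Dnmt1a, of the maintenance class, rose from 10.4 and 8.96 RPKM to 26.2 and 33.2 RPKM (1.71, SE 0.17), while Dnmt3, of the de novo class, was at 13.5 and 11.5 RPKM against 11.6 and 10.6 RPKM. The fold change of Dnmt3 was 0.04 with a 95% interval from −0.77 to 0.84, so a change of less than about that size was not detectable, and its sign turned without the authors' factors. The span of Dnmt3 overlaps another entry over 3809 bases.

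**Figure D3:**
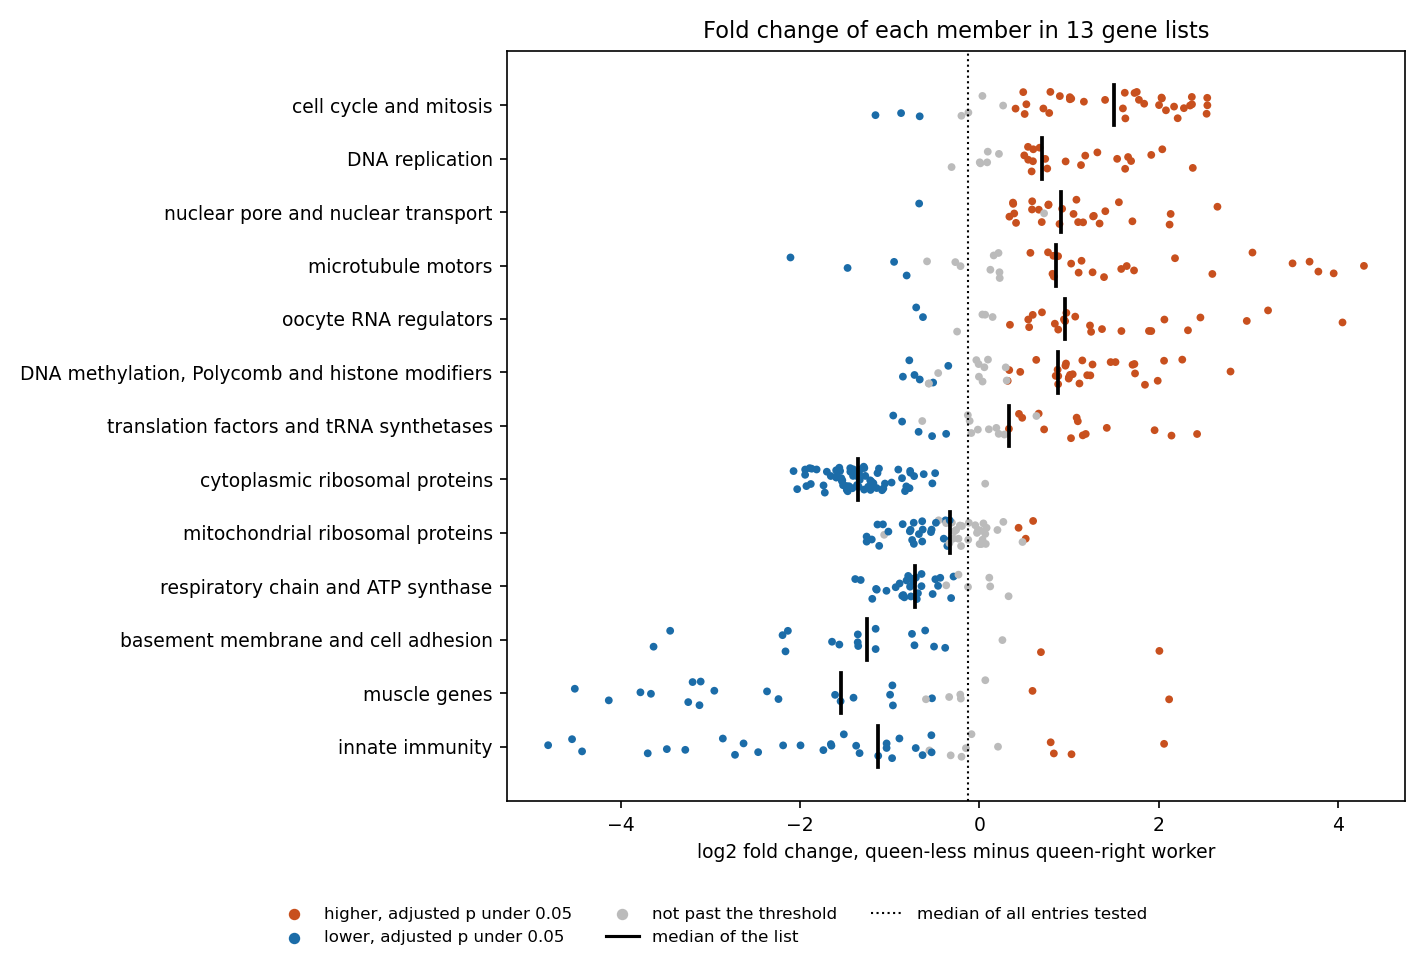
Log2 fold change of each tested member, queen-less minus queen-right worker, in 13 gene lists; orange points were called higher, blue points lower, grey points were not called, and black bars are list medians. Cell cycle genes centre on 1.501 and cytoplasmic ribosomal proteins on −1.36, on either side of the median of all entries, −0.13.

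Among genes of translation, cytoplasmic ribosomal proteins fell, while the list of translation factors and tRNA synthetases held members that rose and members that fell. Of 67 cytoplasmic ribosomal protein genes tested, none rose, 66 fell and 1 was not called, with a median of −1.36, and 54 fell by at least 2-fold. Together they made up 13.6% and 14.7% of all RPKM in the queen-right pools and 6.61% and 5.73% in the queen-less pools. RpL14, among the most abundant, fell from 2631 and 2693 RPKM to 912 and 709 RPKM, and RpS20 had the largest fall, from 509 and 605 RPKM to 122 and 108 RPKM (−2.07, SE 0.11, adjusted p = 8e-06). RpL24 was the exception, at 859 and 903 RPKM against 882 and 736 RPKM, with a fold change of 0.06 (SE 0.15). After quantile normalisation 61 fell and 1 rose.

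Of 29 translation factor and tRNA synthetase genes, 14 (48.3%) rose, 5 (17.2%) fell and 10 were not called, with a median of 0.33. Over all entries 30.6% rose and 37.0% fell. The GTPase-activating factor eIF5 rose from 105 and 112 RPKM to 489 and 543 RPKM (2.43, SE 0.11). eIF3-S10, a subunit of the initiation complex eIF3, rose from 85.9 and 84.5 RPKM to 290 and 292 RPKM, the cap-binding protein eIF-4E from 66.03 and 64.3 RPKM to 156 and 152 RPKM, and the eIF2 kinase EIF2AK4 from 13.2 and 14.4 RPKM to 51.7 and 61.2 RPKM. The 5 that fell were eIF6, which keeps the ribosomal subunits apart, eIF-1A and the synthetases Aats-met, Aats-ser and Aats-tyr. The elongation factor Ef1beta was not called, at 279 and 301 RPKM against 310 and 279 RPKM.

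Mitochondrial genes were lower or not called in most cases. Of 34 tested nuclear genes of the respiratory chain and ATP synthase, none rose, 28 fell and 6 were not called, with a median of −0.72. Ndufb6, of complex I, fell from 136 and 132 RPKM to 55.9 and 45.6 RPKM, and Cox4I1, of complex IV, from 296 and 313 RPKM to 168 and 136 RPKM. The other 10 of the 44 listed genes, encoded by the mitochondrial genome, are listed at 0 in all worker pools and were not tested. Mitochondrial ribosomal proteins had 3 higher, 25 lower and 28 not called of 56, with a median of −0.33. Once the trend of fold change with the length of the gene region was removed, 12 rose and 12 fell, so the direction of this list depends on that step. The respiratory list kept 19 lower and 1 higher under it. The V-ATPase, which acidifies vesicles, had 5 of 6 genes lower and none higher, such as Vha13 from 216 and 245 RPKM to 85.3 and 75.3 RPKM. Enzymes of glycolysis and the TCA cycle were divided, with 3 of 12 (25%) higher and 5 (41.7%) lower, near the 30.6% and 37.0% of all entries.

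Transcription and splicing genes tended upwards. Splicing genes had 19 of 29 higher and 2 lower, with a median of 0.64, and genes of RNA polymerase II, Mediator and the general factors had 26 of 54 higher and 11 lower, with a median of 0.30. MED1, of Mediator, rose from 20.8 and 14.7 RPKM to 52.1 and 44.8 RPKM, and the elongation factor gene spt4 fell from 20.6 and 19.3 RPKM to 5.07 and 4.93 RPKM. Among 15 heat shock and chaperone genes, with the small heat shock genes left out, 9 rose and none fell. Hsp90 rose from 461 and 485 RPKM to 991 and 1004 RPKM (1.27, SE 0.12). Its partner immunophilin FKBP59 rose from 85.6 and 83.2 RPKM to 246 and 256 RPKM and the DnaJ cochaperone Droj2 from 229 and 254 RPKM to 510 and 542 RPKM. Hsc70-4, the constitutive Hsp70, was not called, at 2800 and 3126 RPKM against 2496 and 2084 RPKM.

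Among signalling genes some rose and some fell. Notch signalling passes from a ligand on 1 cell to a receptor on the next and controls, in Drosophila, germ cell cysts and follicle cells. Of its 19 tested genes 6 (31.6%) rose, 7 (36.8%) fell and 6 were not called, with a median of −0.07. These shares were close to those of all entries, 30.6% and 37.0%, so no direction is read from the counts. The receptor Notch (N) was at 5.88 and 7.31 RPKM against 4.95 and 5.18 RPKM. Both queen-less pools lay below both queen-right pools, as in 53.1% of all entries, and the fold change of −0.13 (95% interval −0.57 to 0.32) was not called. The ligand Serrate (Ser) rose from 7.59 and 6.72 RPKM to 15.6 and 15.6 RPKM, and Neuralized (neur), which helps ligands to signal, from 20.1 and 15.1 RPKM to 44.6 and 43.6 RPKM. The DNA-binding factor Su(H) rose from 10.03 and 8.88 RPKM to 23.3 and 24.9 RPKM. Groucho (gro), a corepressor that works with it and with Hairy proteins, had the largest rise, from 13.4 and 8.86 RPKM to 142 and 134 RPKM (3.73, SE 0.19, adjusted p = 6.4e-06). The repressor hairy (h) had the largest fall, from 52.1 and 46.4 RPKM to 3.98 and 4.94 RPKM (−3.01, SE 0.19). O-fut1, which adds fucose to Notch, fell from 13.98 and 16.2 RPKM to 2.43 and 3.94 RPKM, and aph-1, of the protease that cleaves Notch, fell from 67.2 and 74.7 RPKM to 34.7 and 31.6 RPKM. The span of aph-1 overlaps other entries, among them Msh6 over 5489 bases, so some of its reads could belong to them.

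In the Wnt, Hedgehog, TGF-beta, EGF and JAK-STAT pathways 53 of 55 genes were tested. Of these, 17 (32.1%) rose, 24 (45.3%) fell and 12 were not called, against 30.6% and 37.0% of all entries. Ci had passed the filter through the queen-right pools alone and Notum through queen-less or queen pools alone, so the filter favoured their direction. Among those that fell, maverick (mav), a ligand of the TGF-beta family, went from 20.7 and 21.9 RPKM to 1.22 and 0.74 RPKM, the BMP ligand gbb from 9.52 and 9.02 RPKM to 0.46 and 0.73 RPKM, and crossveinless 2 (cv-2), which binds BMPs, from 66.96 and 72.8 RPKM to 7.12 and 4.97 RPKM. The activin receptor baboon (babo) rose from 36.8 and 23.7 RPKM to 92.03 and 105 RPKM (1.89, SE 0.21). htl, an FGF receptor of mesoderm, fell from 64.3 and 59.05 RPKM to 7.81 and 7.19 RPKM, and Ci, the transcription factor of Hedgehog signalling, from 7.97 and 13.97 RPKM to 0.62 and 0.52 RPKM. Notum, a secreted enzyme that inactivates Wnt ligands, rose from 0.10 and 0.15 RPKM to 2.87 and 2.07 RPKM.

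The insulin and TOR pathways, which link nutrition to growth, had 5 genes higher, 4 lower and 4 not called of 13. The shares were 38.5% higher and 30.8% lower, against 30.6% and 37.0% of all entries. foxo, the transcription factor that insulin signalling holds out of the nucleus, fell from 51.1 and 49.6 RPKM to 8.44 and 8.67 RPKM (−2.23, SE 0.14). ILP-2, an insulin-like peptide, fell from 10.01 and 12.1 RPKM to 2.66 and 2.34 RPKM, and Rheb, the GTPase that activates TOR, from 181 and 184 RPKM to 60.96 and 57.01 RPKM. Tsc1, which restrains Rheb, rose from 47.5 and 45.7 RPKM to 90.3 and 90.2 RPKM, and the kinase shaggy (sgg) from 107 and 76.6 RPKM to 209 and 244 RPKM.

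**Figure D4:**
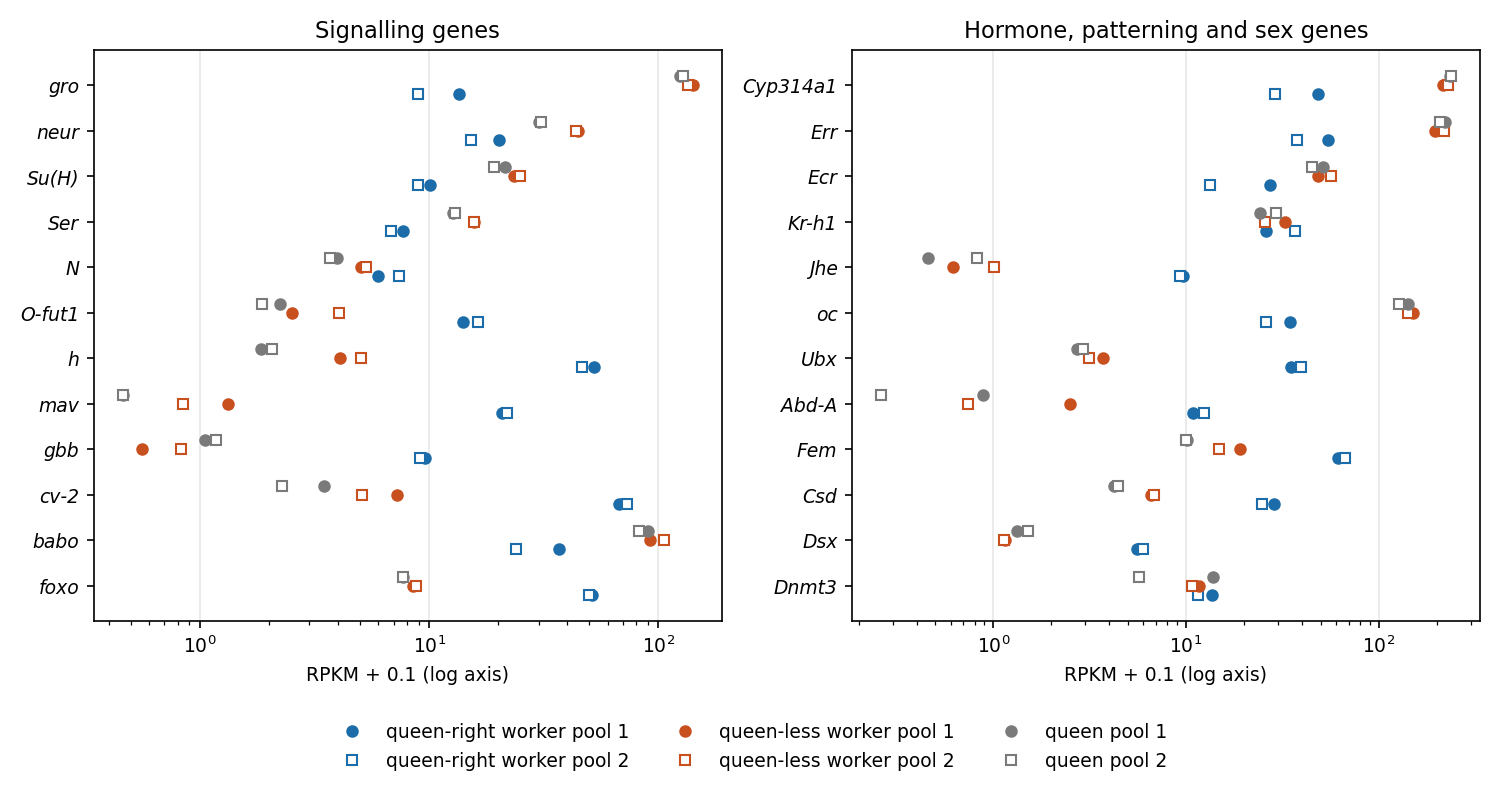
RPKM plus 0.1 on a log axis in each pool for 12 signalling genes (left) and 12 hormone, patterning, sex determination and DNA methylation genes (right), chosen after their values were seen to show members that rose, fell or were not called. gro runs from 13.4 and 8.86 RPKM in queen-right pools to 142 and 134 RPKM in queen-less pools and h from 52.1 and 46.4 to 3.98 and 4.94, while N and Kr-h1 lie close together in both groups.

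Of 26 tested hormone genes 12 were higher, 5 lower and 9 not called, with a median of 0.43. Of the 26, 3 had passed the filter through the queen-right pools alone and 3 through queen-less or queen pools alone, so no direction is read from these counts. Ecdysteroids are steroid hormones that insect ovaries can make and that act through the receptor EcR. Cyp314a1, the enzyme shade that makes 20-hydroxyecdysone, rose from 48.6 and 28.99 RPKM to 215 and 230 RPKM (2.73, SE 0.23, adjusted p = 4.3e-05), and CYP315A1, which acts just before it, from 1.56 and 2.25 RPKM to 5.26 and 5.50 RPKM. CYP18A1, which inactivates the hormone, rose from 0.19 and 0 RPKM to 2.07 and 1.79 RPKM. It had passed the filter through queen-less or queen pools alone, so the filter favoured its rise. The receptor (Ecr in the table) rose from 27.2 and 13.3 RPKM to 48.3 and 56.2 RPKM, with a fold change of 1.60 (SE 0.30), or 2.12 without queen-right pool 1 and 1.07 without pool 2. Err, the oestrogen-related receptor, rose from 54.5 and 37.6 RPKM to 196 and 219 RPKM. On the side of juvenile hormone, its esterase Jhe fell from 9.56 and 9.23 RPKM to 0.52 and 0.91 RPKM (−2.42, SE 0.24). Jhe had passed the filter through the queen-right pools alone, so it had to be lower in the queen-less pools. The response gene Kr-h1 was not called, at 25.9 and 36.8 RPKM against 32.5 and 25.7 RPKM (0.10, 95% interval −0.33 to 0.53). Among sex determination genes, complementary sex determiner (Csd), feminizer (Fem) and doublesex (Dsx) fell. Fem went from 61.5 and 66.97 RPKM to 18.9 and 14.7 RPKM, Csd from 28.5 and 24.6 RPKM to 6.50 and 6.71 RPKM and Dsx from 5.44 and 5.92 RPKM to 1.05 and 1.04 RPKM. Their partner tra2, a splicing cofactor, rose from 38.7 and 48.5 RPKM to 63.1 and 66.8 RPKM. Csd and Fem are close relatives in sequence, so their reads may have been split uncertainly.

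Genes of muscle and basement membrane fell in most cases. Mp20 and TpnI, given below, are also among the muscle markers above, so they are not separate evidence. Of 25 muscle genes tested 18 fell, 2 rose and 5 were not called, with a median of −1.55. Muscle protein 20 (Mp20) fell from 1160 and 1677 RPKM to 57.3 and 48.1 RPKM (−4.51, SE 0.20), troponin C type I (TpnCI) from 321 and 359 RPKM to 15.1 and 16.9 RPKM and troponin I (TpnI) from 432 and 443 RPKM to 32.9 and 21.9 RPKM. dystrophin (dys) rose, from 4.10 and 3.63 RPKM to 12.7 and 23.8 RPKM, as did Mhc2. Arginine kinase (Argk), a buffer of ATP in muscle and other tissues, was not called, at 307 and 328 RPKM against 265 and 218 RPKM. Basement membrane and adhesion genes had 17 of 20 lower and 2 higher, with a median of −1.26. SPARC (BM-40-SPARC in the table) fell from 296 and 329 RPKM to 23.7 and 18.8 RPKM, although it overlaps a histone gene over 1325 bases, nidogen (Ndg) from 53.5 and 76.3 RPKM to 5.05 and 3.47 RPKM and peroxidasin (Pxn) from 29.9 and 43.4 RPKM to 6.79 and 5.42 RPKM. The adhesion gene neurotactin (Nrt) rose from 7.33 and 8.83 RPKM to 28.3 and 33.6 RPKM. Of 15 tetraspanins, membrane proteins that organise adhesion and signalling, 12 fell and 1 rose, and 3 of the 15 had passed through the queen-right pools alone. Tspan6 fell from 389 and 495 RPKM to 50.9 and 44.2 RPKM.

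Immune genes fell in 27 of 37 tested cases and rose in 4, with a median of −1.13. The protease inhibitor serpin-5 fell from 621 and 832 RPKM to 25.1 and 18.4 RPKM (−4.81, SE 0.17), the thioester protein TEP7 from 334 and 488 RPKM to 15.6 and 15.2 RPKM and the lysozyme Lys-2 from 64.3 and 50.9 RPKM to 1.67 and 0.79 RPKM. Defensin 1 (Def1), an antimicrobial peptide, fell less, from 376 and 328 RPKM to 97.7 and 85.1 RPKM. The receptor Toll-1 rose from 0.35 and 0.44 RPKM to 3.07 and 5.36 RPKM. Its span lies wholly within that of the entry Lerp, so reads of both cannot be told apart without strand. The other genes that rose were cact1 and cact3, inhibitors in the Toll pathway, and the inhibitor gene serpin-3. Serine proteases had 34 of 51 genes tested, of which 19 (55.9%) fell and 4 (11.8%) rose, against 37.0% and 30.6% of all entries. SP10 fell from 1214 and 1012 RPKM to 20.7 and 17.4 RPKM (−5.60, SE 0.15, adjusted p = 1.4e-06), and SP20 rose from 8.80 and 3.48 RPKM to 101 and 92.3 RPKM (4.07, SE 0.33), or 4.67 without queen-right pool 1 and 3.47 without pool 2. In each of these lists 4 of the genes tested had passed the filter through the queen-right pools alone, so those genes had to differ. Toll-1 had passed through queen-less or queen pools alone, so the filter favoured its rise.

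Detoxification genes were lower too. Of 29 antioxidant, glutathione transferase and related genes 19 fell and 2 rose, with a median of −0.86. GstS4 fell from 1369 and 1568 RPKM to 49.95 and 51.4 RPKM and the peroxiredoxin Tpx-4 from 879 and 1121 RPKM to 40.9 and 32.6 RPKM. GstS1 and Tpx-1 were the members that rose, GstS1 in only 7 of 18 alternative analyses and Tpx-1 from 482 and 579 RPKM to 835 and 759 RPKM. Of 42 cytochrome P450 genes 32 were tested, 18 (56.25%) fell, 5 (15.6%) rose and 9 were not called, against 37.0% and 30.6% of all entries. Of the 32, 6 had passed through the queen-right pools alone and 1 through queen-less or queen pools alone. Related genes of the CYP6AS group, which is enlarged in bees, went opposite ways. CYP6AS4 fell from 391 and 512 RPKM to 13.98 and 21.1 RPKM and Cyp6as5 from 329 and 395 RPKM to 15.5 and 19.2 RPKM, while CYP6AS17 rose from 10.7 and 1.64 RPKM to 169 and 194 RPKM (5.22, SE 0.59), or 6.33 without queen-right pool 1 and 4.11 without pool 2. Reads of such close relatives may have been split uncertainly. Where only entries at 1 RPKM in every library were kept, 6 P450 genes fell and 4 rose, of 19 tested.

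Odorant binding and chemosensory proteins, small carriers of hydrophobic ligands that many tissues make, had 27 of 42 genes tested, of which 14 fell and 5 rose, and 7 had passed through the queen-right pools alone. Without queen-right pool 1 the counts were 9 and 7, and without pool 2 they were 13 and 5. CSP3 fell from 489 and 473 RPKM to 9.79 and 19.1 RPKM (−4.84, SE 0.26). Obp7, near 0 in queen-right workers, rose from 0.38 and 0.75 RPKM to 56.4 and 42.3 RPKM (5.196, SE 0.17). It had passed the filter through queen-less or queen pools alone, so the filter favoured its rise. Obp9 rose from 3.61 and 1.33 RPKM to 33.5 and 38.6 RPKM. CSP6 rose from 28.2 and 42.6 RPKM to 234 and 217 RPKM. Of 30 cuticle and chitin genes 18 fell and 1 rose, with 6 that had passed through the queen-right pools alone. The apidermin Apd-2, a cuticle protein of the honeybee, fell from 52.8 and 50.6 RPKM to 0.71 and 0.37 RPKM. Apd-2 was 1 of these 6, so it had to be lower in the queen-less pools. Among neuronal genes and amine receptors 22 of 42 (52.4%) fell and 10 (23.8%) rose, against 37.0% and 30.6% of all entries. Of the 42, 7 had passed through the queen-right pools alone. The octopamine receptor Octbeta2R rose from 2.19 and 1.15 RPKM to 23.7 and 27.01 RPKM (3.52, SE 0.23) and the calcium channel cacophony (Cac) from 3.09 and 1.46 RPKM to 19.9 and 22.4 RPKM. In Drosophila this class of octopamine receptor acts in ovulation. The acetylcholine receptor subunit nAChRa9 fell from 11.6 and 15.8 RPKM to 0.54 and 0.43 RPKM. It was among those that passed through the queen-right pools alone, so it had to be lower in the queen-less pools. axo, named for axotactin of Drosophila, fell from 58.6 and 80.2 RPKM to 0.65 and 0.58 RPKM. It had passed the filter through the queen-right pools alone.

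Vesicle traffic genes had 12 (26.1%) higher, 12 (26.1%) lower and 22 not called of 46, against 30.6% and 37.0% of all entries. Their median was −0.15, close to that of all entries, and 6 were higher and 22 lower without the authors' factors. shibire (shi), the dynamin of endocytosis, rose from 21.8 and 19.5 RPKM to 47.9 and 50.6 RPKM and Rab3, a GTPase of regulated secretion, fell from 20.5 and 26.5 RPKM to 2.76 and 3.40 RPKM. Proteasome subunits had 3 (21.4%) higher, 3 (21.4%) lower and 8 not called of 14. Of 15 genes of apoptosis and autophagy 6 (40%) fell, 2 (13.3%) rose and 7 were not called, with a median of −0.34. The share that fell was close to the 37.0% of all entries. Among those that fell was Atg8a, the protein that coats autophagosomes, from 642 and 746 RPKM to 234 and 186 RPKM.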

How the data were processed

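RNA-seq of 6 pools of ovaries was mapped to groups by the sample labels. The authors deposited RPKM per pool and gene entry and a normalised signal that equals RPKM + 1 multiplied by 1 factor per pool, which was recovered from both columns. Another 12 columns of values, counted over all 6 samples, the group means and the authors' own p-values were not used. Aligner, counting program, strand and build are not given in the sources used here. A reference table of the assembly Amel_HAv3.1 held 8962 of the identifiers and was used for names only. Differences were tested with limma 3.58.1 (R 4.3.3) on log2(RPKM + 1) with the authors' factors, all 6 libraries, 1 mean per group, a variance trend, and Benjamini-Hochberg adjustment over 8778 entries. Entries sharing a symbol (28) were left out of the lists.

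The comparison and the gene lists were chosen with earlier results of these data known, and the lists were trimmed and extended by symbol. Named genes are the 12 largest rises and falls among symbols, up to 4 called members and the 2 most abundant of each list, and a fixed set (Vg, N, Dnmt3, Ecr, Kr-h1, Hsp90, mael, orb). All others, such as members that moved against their list, were named after their values were seen. Small heat shock genes were left out. Alternatives changed the scaling, pseudocount, filter, gene length, libraries, replicate block, variance trend and threshold. The fit was tested on simulated data.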

Additional observations from a re-analysis of the deposited data

How the results depend on the processing

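Of the called genes named in the report only orb changed direction under any of 18 alternatives, to 0.030 after quantile normalisation, and calls were lost most often for ap and GstS1 (both kept in 7) and Aats-tyr (kept in 10). The call was also lost without queen-right pool 1 for Aats-ser (−0.74) and mus81 (−0.56), and without queen-right pool 2 for Twi (−0.64), Xpd (−0.37), cact3 (0.60), Kr (0.60) and Lim3 (1.07), while Lis-1 (−0.36) and ran (1.25) gained a call without queen-right pool 2 and spn-E (−0.45) without queen-right pool 1. It was lost without queen-less pool 1 for Aats-ser (−1.02), Xpd (−0.33), mus81 (−0.59), Kr (0.81) and Lim3 (0.78), and without queen-less pool 2 for Aats-ser (−0.91), Twi (−0.56) and cact3 (0.66). With the length trend removed the call was lost for Nxt1, mago and Aats-ser, and after quantile normalisation for Twi and mus81. Ef1beta and RpL24 gained a call under either of these steps. Argk gained one without the authors' factors, and Lis-1 without the factors or after quantile normalisation. The cause was not tested. A threshold of 1 on the log2 scale left 3301 genes, 1434 higher and 1867 lower, by construction. Without a filter 4085 were higher, of which 1313 are entries listed at 0 in all libraries that take only the difference between the authors' factors. Without these factors 2204 were higher and 3881 lower, with a median of −0.32. The median was −0.034 after quantile normalisation and turned to 0.014 with the length trend removed (2987 higher, 2773 lower), to 0.0062 with 1 RPKM asked of every library (which removes genes near 0 in one group) and to 0.054 without a filter.

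Among genes not called, signs turned for Argk (0.064 after quantile normalisation), N (0.29, and 0.013 with the length trend removed), Dnmt3 (−0.16 without the factors and −0.042 with the length trend removed), Kr-h1 (−0.092 without the factors and −0.042 after quantile normalisation) and RpL24 (−0.13 without the factors). Leaving out each library in turn gave 4927 to 5644 called genes, and ranges from −0.11 to 0.18 for Dnmt3, −0.11 to 0.31 for Kr-h1 and −0.055 to 0.18 for RpL24. The replicate number as a block gave 5704 called genes, 2594 higher and 3110 lower, and the deviations of same-numbered pools correlated between worker groups with −0.13 across genes, so the numbers were not taken as pairs. With the numbers of the queen-right pools crossed, an alternative chosen after seeing the data, 6096 were called. The depth is unknown, and 2 pools a group limit the precision.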
